A study of Mus musculus with 44 samples.

Results

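Fos, Junb and Jun are the 3 genes described here, out of 8203 measured, and they were chosen by name as subunits of the transcription factor AP-1. The samples are 44 adult Crh-TRAP mice, in which Cre made under the Crh promoter turns on eGFP-L10a, a labelled ribosomal protein, and RNA on the ribosomes of Crh neurons is captured through the label. All 44 mice carried both transgenes, and each sample came from amygdala punches of 1 mouse. The 16 TA mice (10 males and 6 females) heard 5 tones with the shock generator off (tone alone). The 12 FC mice (6 males and 6 females) received 5 tones paired with a shock of 0.65 mA (fear conditioning). The 16 EXT mice (10 males and 6 females) received the same pairings and, a day later in a new context, 30 tones without shock (fear extinction). EXT mice therefore differed from TA mice in shock, day, context and number of tones together, and what each of these contributed cannot be told apart. The values are log2 cpm, a gene's reads scaled to the size of its library and put on a log2 scale.

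AP-1 is a dimer of basic leucine zipper proteins, in which a Fos protein pairs with a Jun protein, or Jun proteins pair among themselves, to bind DNA. Fos, Junb and Jun are immediate early genes: calcium entry and growth factor signals switch them on within minutes through kinases that act on factors already bound at their promoters, and their RNA is short-lived. In the brain, Fos is widely used as a mark of neurons that were recently active. Junb is often described as a weaker activator than Jun and can restrain it, whereas Jun is also a target of the stress-activated kinase JNK.

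In GENCODE release M21 (build GRCm38), Fos lies at chr12:85473890-85477273 on the plus strand, with 4 exons in its coding transcript of 2108 bases. Junb is a single-exon gene on the minus strand, whose coding transcript of 1809 bases lies at chr8:84976910-84978718. Jun, also of 1 exon, lies at chr4:95049034-95052222 on the minus strand, with a transcript of 3189 bases. The annotated Junb gene overlaps Prdx2 through a noncoding transcript, and Jun overlaps the antisense gene Junos. The library kit does not mark strand, so reads from these stretches cannot be assigned to a strand.

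The 250 bases before the RefSeq start of each gene (build GRCm38.p6) are shown because early genes are switched on largely through short motifs near their starts. They lie at chr12:85473640-85473889 for Fos (plus strand), chr8:84978749-84978998 for Junb and chr4:95052223-95052472 for Jun (both minus strand). All are written 5′ to 3′ along the gene, and capitals mark matches on either strand to TGACG (the core of a cAMP response element), to the TATA box letters TATAAA, to the GC box letters GGGCGG (read as their complement where they lie on the other strand), to CCAAT and to the variant element TNACNTCA.
Fos: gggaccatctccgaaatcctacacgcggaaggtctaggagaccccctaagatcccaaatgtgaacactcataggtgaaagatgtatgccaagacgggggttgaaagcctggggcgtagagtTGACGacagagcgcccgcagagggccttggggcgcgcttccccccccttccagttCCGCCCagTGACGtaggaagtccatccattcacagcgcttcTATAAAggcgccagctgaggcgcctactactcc
Junb: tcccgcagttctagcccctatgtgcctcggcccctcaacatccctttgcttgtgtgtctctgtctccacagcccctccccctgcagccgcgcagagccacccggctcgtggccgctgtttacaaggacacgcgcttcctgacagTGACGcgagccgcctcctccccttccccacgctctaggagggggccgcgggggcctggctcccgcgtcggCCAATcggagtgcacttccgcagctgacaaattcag
Jun: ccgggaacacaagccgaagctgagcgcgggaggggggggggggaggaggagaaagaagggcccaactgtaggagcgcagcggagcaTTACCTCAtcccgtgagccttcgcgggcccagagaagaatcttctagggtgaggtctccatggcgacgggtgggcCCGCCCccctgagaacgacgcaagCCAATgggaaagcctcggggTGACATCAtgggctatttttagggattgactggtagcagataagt
Fos held TGACG at 129 to 125 and at 66 to 62 bases upstream of its start, and Junb held it at 106 to 102 bases. Jun held no TGACG, but it held TTACCTCA at 164 to 157 and TGACATCA at 45 to 38 bases upstream. TNACNTCA was added to the motifs after the Jun sequence had been seen. The full element TGACGTCA contains TGACG and is also a match to TNACNTCA, so these shares overlap. Of 32851 RefSeq promoters of the same length, 17.8% held TGACG, 14% TNACNTCA, 12.4% TATAAA, 32.7% GGGCGG and 33.8% CCAAT. None of the 3 windows held the full element, the AP-1 site TGANTCA or a CArG box, which 1.5%, 6.7% and 1.5% of promoters held. These matches are letters in a window and do not show binding. Only these windows and spellings were searched, and elements farther upstream or spelled otherwise are not covered. A window without a motif therefore does not show that the gene lacks such an element.

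Junb had the highest level of the 3 genes. Per kilobase of transcript it reached 53.0 ± 12.3 cpm in TA mice, 51.7 ± 19.3 in FC mice and 33.1 ± 13.1 in EXT mice (mean ± SD, n = 16, 12 and 16). Jun reached 15.4 ± 5.70, 13.0 ± 3.46 and 10.7 ± 3.67 cpm per kilobase, and Fos 13.9 ± 4.02, 12.1 ± 2.91 and 8.16 ± 3.44. Junb was the highest of the 3 per kilobase in 44 of 44 mice. Fos and Jun were close, and Fos was above Jun per kilobase in 16 of 44 mice. Each gene was highest on average in TA mice and lowest in EXT mice, with FC mice between them.

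The reads behind these levels were ample. Fos had 163 to 828 reads a mouse, Junb 465 to 3063 and Jun 210 to 1842. Counting error made up 3.24% of the variance of Fos between mice of the same batch and condition, 1.53% for Junb and 1.42% for Jun, if each read counts as 1 molecule. Effective library sizes, solved from the deposited values, were 12802113 to 20440351 reads. Scaling enters these sizes, so they are not counts of the reads sequenced. Within batches, the effective sizes of EXT libraries were smaller than those of TA libraries by a factor of 0.871 (exact permutation test, two-sided, p = 0.000568).

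**Figure D1:**
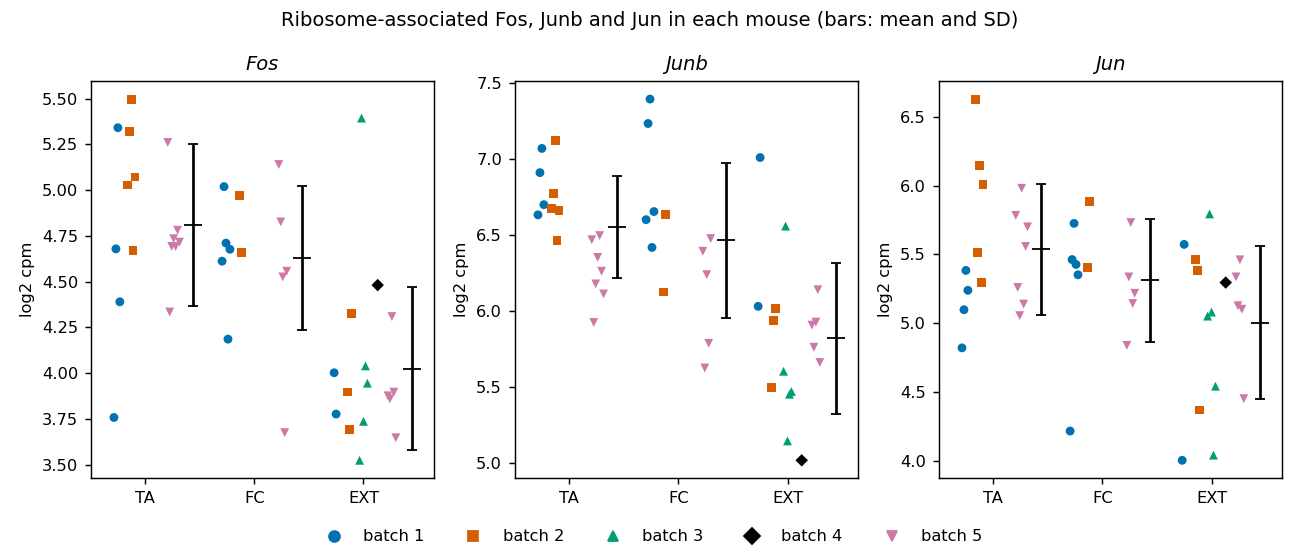
Level of Fos, Junb and Jun (y axis, log2 cpm) in each of 44 mice by condition (x axis), with symbols for the 5 batches and bars for the mean and SD of each condition. EXT mice lie lowest on average for all 3 genes, batches 3 and 4 hold EXT mice only, and 1 EXT mouse of batch 3 stands above the others in Fos at 5.39.

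The labels name 5 batches, and what they stand for is not stated. There are 4 TA, 5 FC and 2 EXT mice in batch 1, then 5, 2 and 3 in batch 2 and 7, 5 and 5 in batch 5. Batches 3 (5 mice) and 4 (1 mouse) hold EXT mice only, and the effects of batch and condition cannot be told apart among them. The batch term alone accounted for 53.6% of the variance of Junb, 16.8% of that of Jun and 9.19% of that of Fos, against 41.5% for the median gene. Condition alone accounted for 41.1% for Fos, 37.3% for Junb and 18.3% for Jun, against 7.93% for the median gene. In this share Fos ranked 8 and Junb 22 of 8203 genes, and Jun 1490. The conditions were therefore compared with limma on the deposited log2 values, with batch as categories and sex as terms and Benjamini-Hochberg adjustment over all 8203 genes.

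The comparison of EXT with TA mice asks how extinction training, with all that came before it, changed ribosome-associated RNA relative to tones alone. Fos fell in EXT mice to 0.537 of its TA level, and it was 1 of 2 genes that passed the adjusted threshold of 0.05. Junb and Jun were also lower on average, at 0.692 and 0.686 of the TA level, but did not pass over all genes. In bulk RNA of this kind, fewer cells with a transcript and less transcript per cell cannot be told apart.

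Fos ranged from 3.76 to 5.50 in TA mice (median 4.73) and from 3.52 to 5.39 in EXT mice (median 3.90). The ranges overlapped, but all EXT mice except 1 of 16 were under the median of TA. The exception was EXT replicate 3 of batch 3, at 5.39. In limma the difference was -0.90 (SE 0.17, 95% interval -1.24 to -0.56, adjusted p = 0.0330). Over all genes, 0.0244% passed in this direction, namely Fos and Iars, an aminoacyl-tRNA synthetase, which differed by -0.60 (SE 0.11) and is named here because it was the only other such gene. With 1 mouse left out at a time, Fos differed by -0.96 to -0.85 and passed in 13 of 32 fits (adjusted p = 0.00326 to 0.133). The 13 include every fit without an EXT mouse of batch 3 or 4. Those mice inform the spread and the sex term but not the difference. Fos did not pass when batch 1, 2 or 5 was left out.

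Inside the batches that hold both conditions, the fall of Fos appeared each time. In batch 1, TA mice had 3.76, 4.39, 4.68 and 5.34 and EXT mice 3.78 and 4.00. In batch 2, TA mice had 4.67, 5.03, 5.07, 5.32 and 5.50 and EXT mice 3.69, 3.90 and 4.33. In batch 5, the 7 TA mice had 4.33 to 5.26 (median 4.72) and EXT mice 3.65, 3.86, 3.88, 3.90 and 4.31. All EXT mice lay below all TA mice in batches 2 and 5, and the groups overlapped in batch 1. Of all genes, 9.59% were separated in this direction in batch 2, 0.341% in batch 5 and 0.0366% in both, and Fos was among these 3 genes. The differences were -0.65 (SE 0.35), -1.14 (SE 0.23) and -0.83 (SE 0.15) in batches 1, 2 and 5. Their weighted mean was -0.89 (exact permutation of labels inside batches, two-sided, p = 6.01e-06, unadjusted, 1 of 9 such tests). In the batches with EXT mice only, Fos was 3.52, 3.74, 3.94, 4.04 and 5.39 in batch 3 and 4.48 in batch 4.

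Junb ranged from 5.92 to 7.12 in TA mice (median 6.56) and from 5.01 to 7.01 in EXT mice (median 5.83), and 15 of 16 EXT values were under the median of TA. The limma difference was -0.53 (SE 0.13, 95% interval -0.81 to -0.26, p = 0.000403, adjusted p = 0.136). At an unadjusted p of 0.05, 11% of genes were lower in EXT mice and 10.2% higher, and all 3 members were among the lower ones. Among TA mice the level of Junb varied with batch, and the means were 6.83 in batch 1, 6.74 in batch 2 and 6.25 in batch 5.

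The batch values of Junb show the same direction with unequal sizes. In batch 1, TA mice had 6.63, 6.70, 6.91 and 7.07 and EXT mice 6.03 and 7.01. In batch 2, TA mice had 6.46, 6.66, 6.67, 6.77 and 7.12 and EXT mice 5.49, 5.93 and 6.01. In batch 5, TA mice had 5.92 to 6.49 (median 6.26) and EXT mice 5.66, 5.76, 5.90, 5.92 and 6.14. The groups were apart in batch 2 only, where 9.59% of all genes were separated in this direction. In batch 5 all 5 EXT values were under the median of TA, for which no share over all genes was taken. The differences were -0.31 (SE 0.50), -0.92 (SE 0.19) and -0.38 (SE 0.11), with a weighted mean of -0.53 (exact permutation, p = 0.000158, unadjusted). The EXT mice of batch 3 had 5.14, 5.45, 5.47, 5.60 and 6.56, and that of batch 4 had 5.01, the lowest Junb value of all.

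Jun ranged from 4.82 to 6.63 in TA mice (median 5.45) and from 4.00 to 5.79 in EXT mice (median 5.11), and 12 of 16 EXT values were under the median of TA. The limma difference was -0.54 (SE 0.19, 95% interval -0.93 to -0.16, p = 0.00698, adjusted p = 0.149). In batch 1, TA mice had 4.82, 5.10, 5.24 and 5.38, and the 2 EXT mice had 4.00 and 5.57, the lowest and the highest of the 6. In batch 2, TA mice had 5.29, 5.51, 6.01, 6.15 and 6.63 and EXT mice 4.37, 5.38 and 5.46. In batch 5, TA mice had 5.05 to 5.98 (median 5.56) and EXT mice 4.45, 5.10, 5.13, 5.34 and 5.46. The groups overlapped in all 3 batches. The differences were -0.35 (SE 0.79), -0.85 (SE 0.42) and -0.40 (SE 0.22), with a weighted mean of -0.53 (exact permutation, p = 0.0107, unadjusted). In batch 3, Jun was 4.04, 4.54, 5.05, 5.08 and 5.79, and in batch 4 it was 5.30.

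**Figure D2:**
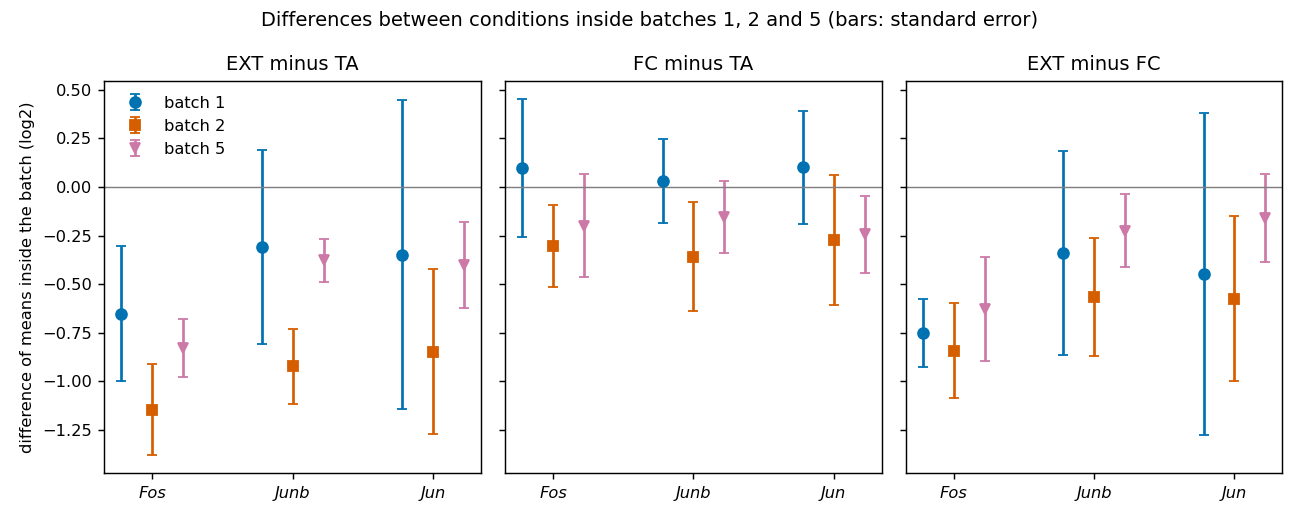
Difference of the group means inside batches 1, 2 and 5 (y axis, log2) for each gene (x axis) and pair of conditions (panels), with bars for the standard error. EXT minus TA is negative for all 3 genes in each batch, from -0.31 for Junb to -1.14 for Fos, whereas FC minus TA lies on both sides of 0.

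Whether these differences varied between batches was tested with an interaction of condition and batch in batches 1, 2 and 5. The p was 0.435 for Fos, 0.0655 for Junb and 0.447 for Jun (limma F test, adjusted p = 0.646, 0.259 and 0.654). The interaction passed the adjusted threshold in 111 genes, none of them a member.

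How batch is entered decided which members passed. With batch entered as a number from 1 to 5, Fos differed by -0.79 (adjusted p = 0.0130), Junb by -0.71 (adjusted p = 0.0130) and Jun by -0.54 (adjusted p = 0.0313), so that all 3 members passed. In that limma fit 11% of all genes passed as lower and 10.4% as higher in EXT mice. Without the mice of batches 3 and 4, where batch stays a category, Fos differed by -0.89 (adjusted p = 0.00998), Junb by -0.52 (adjusted p = 0.0327) and Jun by -0.54 (adjusted p = 0.0632), with 2.84% of genes passing as lower. The fall of Fos thus passed in each of these fits, Junb in 2 of 3 and Jun in 1 of 3.

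Effective library size moved with condition, and their effects cannot be told apart. A covariate for library size can also take up part of the difference between conditions. With the log2 library size as a covariate, Fos differed by -0.67 (SE 0.20, p = 0.00231, adjusted p = 0.880), Junb by -0.33 (SE 0.16, p = 0.0446, adjusted p = 0.880) and Jun by -0.25 (SE 0.22, p = 0.265, adjusted p = 0.880) in limma, and no gene passed the adjusted threshold. All 3 remained negative.

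**Figure D3:**
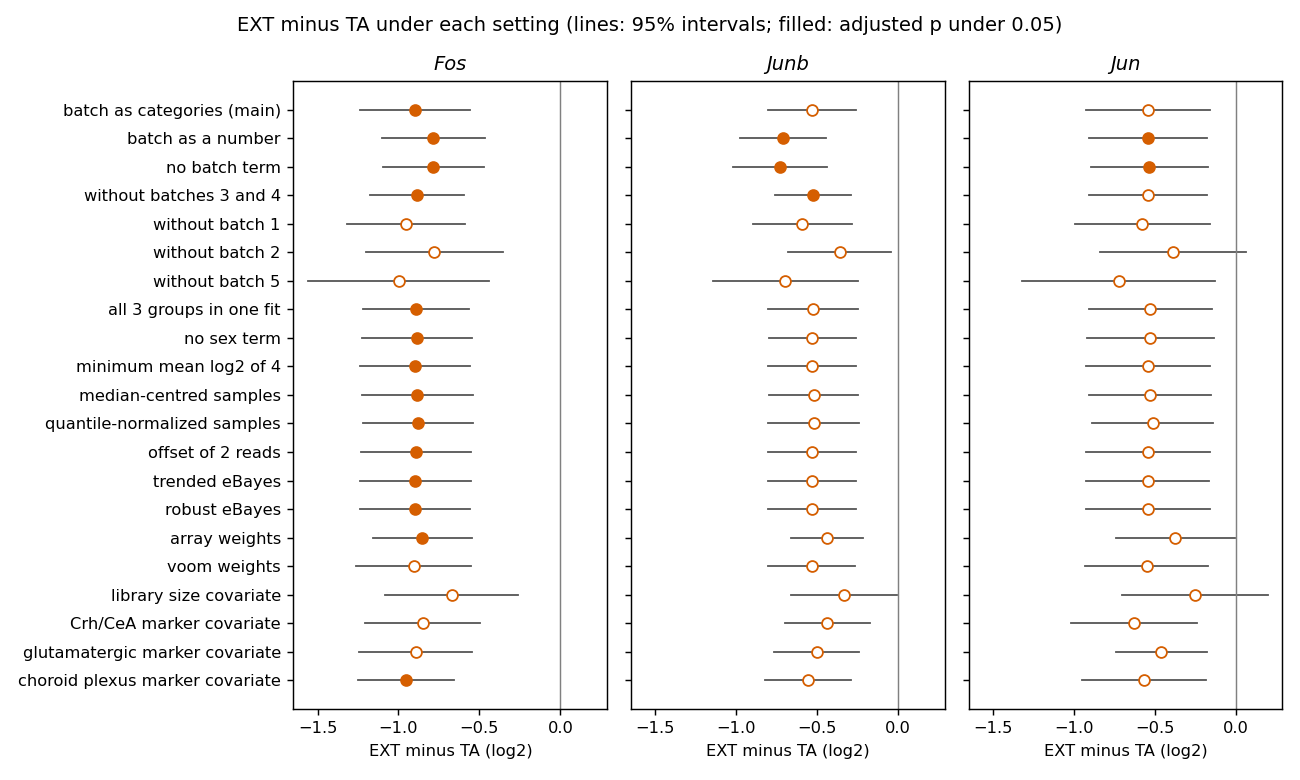
EXT minus TA (x axis, log2) for Fos, Junb and Jun under the main limma fit and 20 other settings (rows), with 95% intervals and filled symbols where the adjusted p was under 0.05. Fos keeps values from -1.0 to -0.67 with intervals below 0, while the intervals of Junb and Jun come closer to 0 and Jun crosses it without batch 2 and with the library size covariate.

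Both sexes showed lower values in EXT than in TA mice. In males Fos differed by -0.92 (SE 0.14, adjusted p = 0.0266) and was the only gene that passed, 0.0122% of those tested. Junb differed by -0.55 (SE 0.12) and Jun by -0.61 (SE 0.22) in males (both with an adjusted p of 0.351 in limma). In females the differences were -0.85 (SE 0.33) for Fos, -0.51 (SE 0.26) for Junb and -0.46 (SE 0.32) for Jun, with adjusted p from 0.346 to 0.484. The difference between the sexes, tested as an interaction in limma, (males minus females, with batch terms shared by both sexes) was -0.32 (SE 0.31, p = 0.302) for Fos, -0.23 (SE 0.25, p = 0.357) for Junb and -0.21 (SE 0.35, p = 0.546) for Jun.

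The comparison of FC with TA mice asks what the shocks added to the tones. None of the 3 genes differed beyond the spread between mice, and each interval reached both sides of 0. This comparison shares its TA mice with the one above.

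Fos ranged from 3.67 to 5.14 in FC mice (median 4.67), Junb from 5.62 to 7.39 (median 6.44) and Jun from 4.21 to 5.88 (median 5.38), all overlapping TA mice. The differences were -0.13 (SE 0.15, 95% interval -0.43 to 0.18, p = 0.400) for Fos, -0.13 (SE 0.12, interval -0.37 to 0.10, p = 0.255) for Junb and -0.13 (SE 0.16, interval -0.45 to 0.18, p = 0.396) for Jun. No gene passed the adjusted threshold in limma, and 8.20% were lower and 8.61% higher at an unadjusted p of 0.05, with no member among them. In batch 1 all 3 genes were slightly higher in FC than in TA mice, by 0.10 (SE 0.35), 0.03 (SE 0.22) and 0.10 (SE 0.29) for Fos, Junb and Jun. In batches 2 and 5 the differences were -0.36 to -0.15, within the spread of each batch. With library size as a covariate, the difference of Fos became 0.0020. In males Fos differed by -0.32 (SE 0.15, p = 0.0518) and in females by 0.09 (SE 0.26, p = 0.730), with an interaction of -0.42 (SE 0.29, p = 0.158).

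The comparison of EXT with FC mice sets extinction against conditioning alone, both after shocks, and shares its mice with the comparisons above. Mice were killed at the same delay after their last session, so the shocks lay a day further back in EXT mice. Context and number of tones differed as well, and what each of these contributed cannot be told apart. Fos was at 0.605 of its FC level in EXT mice, but neither Fos nor any other gene passed the adjusted threshold. Junb and Jun were at 0.791 and 0.790 of the FC level.

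Fos differed by -0.72 (SE 0.18, 95% interval -1.08 to -0.36, p = 0.000317, adjusted p = 0.768 in limma), and 15 of 16 EXT values were under the median of FC. In batch 1, FC mice had 4.19, 4.61, 4.68, 4.71 and 5.02, all above the 2 EXT mice at 3.78 and 4.00. In batch 2, FC mice had 4.66 and 4.97, above the 3 EXT mice. In batch 5, FC mice had 3.67, 4.53, 4.56, 4.83 and 5.14, and FC replicate 10 at 3.67 overlapped the EXT mice. Of all genes, 2.00% were separated in this direction in batch 1, 19.8% in batch 2 and 0.451% in both, and Fos was among the 0.451%. The weighted mean inside batches was -0.71 (exact permutation, two-sided, p = 0.000472, unadjusted). With limma array weights, which count mice with noisy profiles less, Fos differed by -0.77 and passed (adjusted p = 0.00760). In that fit 4 of 8203 genes passed, 3 lower and 1 higher. Fos passed in none of the other alternative fits of this comparison.

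Junb differed by -0.34 (SE 0.17, 95% interval -0.69 to 0.01, p = 0.0566) and Jun by -0.34 (SE 0.22, interval -0.80 to 0.12, p = 0.140) between EXT and FC mice in limma. At an unadjusted p of 0.05, 1.97% of genes were lower and 2.22% higher, and of the members Fos alone was among them. The FC mice of batch 1 included the highest Junb values of all, at 7.23 and 7.39, beside 6.42, 6.60 and 6.65. In batch 2 they had 6.12 and 6.63, both above the 3 EXT mice, a separation that 19.8% of all genes showed. In batch 5 they had 5.62, 5.78, 6.24, 6.39 and 6.47, overlapping EXT. Inside batches the mean difference was -0.34 for both genes (exact permutation, p = 0.0446 for Junb and 0.147 for Jun, unadjusted).

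The ratio of 2 members inside a mouse does not depend on the scaling of its library. The log2 ratio of Fos to Junb was lower in EXT than in TA mice inside batches, with a difference of -0.36 (exact permutation, p = 0.00922, unadjusted, 1 of 9 tests of ratios). Without stratification by batch, the difference of this ratio was -0.06 (permutation test, p = 0.765). That test also took in the EXT mice of the batches that hold EXT mice only. The comparison inside batches leaves these mice out, so the -0.36 describes only the batches that hold both conditions. What the added mice and the missing strata each contributed to the change was not tested. The ratio of Fos to Jun differed by -0.36 (exact permutation, p = 0.0995) and that of Junb to Jun by -0.0029 (exact permutation, p = 0.986). Between FC and TA mice, the differences of the 3 ratios inside batches were -0.0014 to 0.013 (exact permutation, p from 0.920 to 0.993).

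Mice of the same batch and condition also differed among themselves, by an SD of 0.439 for Fos, 0.346 for Junb and 0.501 for Jun. Across 39 mice, from each combination of batch and condition with at least 3 mice and centred on its mean, Fos and Junb rose and fell together (Pearson r = 0.69, permutation p = 0.00013, adjusted p = 0.00039 over 3 pairs; Spearman rho = 0.68, permutation p = 2e-05, adjusted p = 6e-05). Without the 2 mice farthest from the Fos median, r was 0.56. It was 0.80 in TA, 0.49 in FC and 0.81 in EXT mice.

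Jun followed the other members less closely. Its r was 0.29 with Fos (permutation p = 0.128, adjusted p = 0.128; rho = 0.26, permutation p = 0.131, adjusted p = 0.131) and 0.36 with Junb (permutation p = 0.0841, adjusted p = 0.126; rho = 0.33, permutation p = 0.0716, adjusted p = 0.107). Without the 2 mice farthest from the median, these fell to 0.14 and 0.17. EXT replicate 3, the mouse with the highest Fos of its condition, also had the highest Jun and the second highest Junb of the EXT mice, at 5.79 and 6.56.

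**Figure D4:**
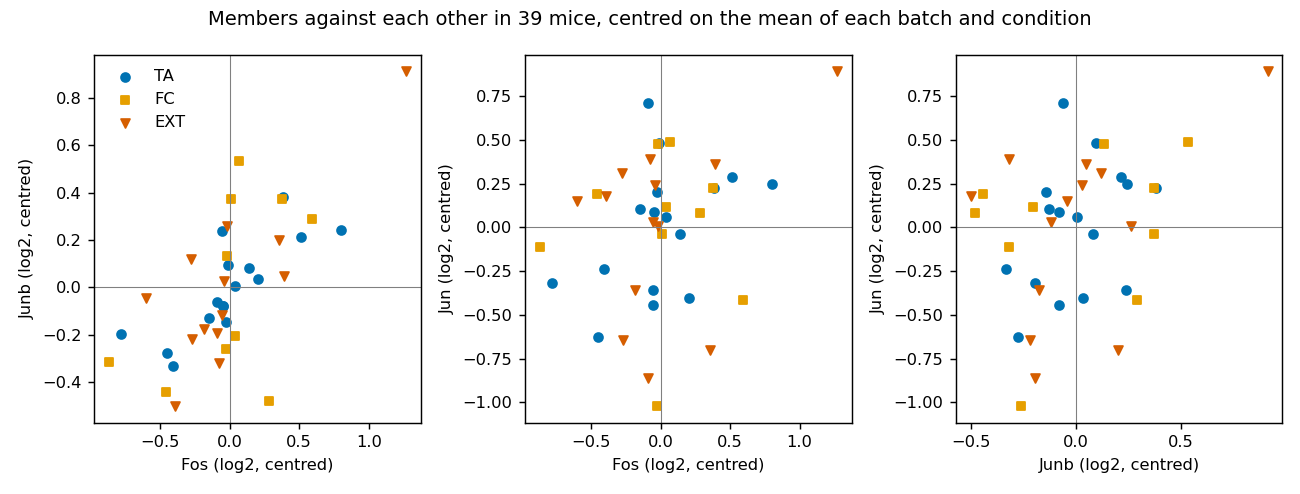
Levels of 2 members against each other (log2, centred on the mean of each batch and condition) in 39 mice, with symbols for the condition. Fos and Junb lie along a rising line (r = 0.69), while Jun scatters against both (r = 0.29 and 0.36), and EXT replicate 3 is the point at the upper right of each panel.

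The genes most like each member over these 39 mice are given as a description, beside a median r close to 0 over all genes. For Fos they were Clip3 (r = 0.80), Arc (0.79), Wbp2 (0.74), Ezh1 (0.74) and Mapre2 (0.73), and Junb came at place 8 of 8202. Arc is itself an activity-regulated early gene of synapses. For Junb they were Gphn (0.81), Dok5 (0.81), Trmt1l (0.79), Syn1 (0.79) and Slc25a22 (0.78). Gphn encodes gephyrin, the scaffold of inhibitory synapses, and Syn1 a synaptic vesicle protein. For Jun they were Rgs5 (0.75), Erc1 (0.74), Gpd2 (0.73), Capn5 (0.73) and Rif1 (0.73), and neither Fos nor Junb was near the top, at places 1466 and 994. These mice share batches, depth and the pull-down, all of which can enter such an r.

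Of the other AP-1 genes measured, none passed the test in EXT vs. TA. Of the 20 genes of the family list, 8 were among the rows, and the other 12 were not analysed here. Besides the members these were Jund, the Jun relative with the steadiest expression, Jdp2 and Atf2, which dimerise with Jun proteins, and the small Maf proteins Mafg and Mafk, which lack an activation domain. In EXT vs. TA, 0 of these 5 passed at an adjusted or an unadjusted p of 0.05 (limma with batch as categories), with a median difference of 0.04 beside 0.01 over all genes. Jund differed by 0.15 (SE 0.10), Jdp2 by 0.04 (SE 0.13), Atf2 by -0.02 (SE 0.09), Mafg by 0.18 (SE 0.11) and Mafk by -0.23 (SE 0.13). With batch as a number, Mafg alone of the 5 passed, as higher by 0.41 (SE 0.12, adjusted p = 0.020).

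None of the other immediate early genes measured passed the adjusted threshold with batch as categories. Of 39 names on the list, synonyms included, 19 were among the rows. In EXT vs. TA 13 of these 19 were lower, with a median of -0.20 beside 0.01 over all genes. The middle range of all genes, from percentile 5 to percentile 95, was -0.32 to 0.30. At an unadjusted p of 0.05, 4 of 19 were lower and 0 higher (limma), beside 11% and 10.2% of all genes. These were Arc (-0.64, SE 0.20, adjusted p = 0.143), the nuclear receptor Nr4a1 (-0.42, SE 0.18, adjusted p = 0.187), the zinc finger factor Egr4 (-0.29, SE 0.13, adjusted p = 0.201) and Vgf, a secreted neuropeptide precursor (-0.38, SE 0.18, adjusted p = 0.226). With batch as a number 5 of 19 passed the adjusted threshold as lower and 0 as higher, beside 11% and 10.4% of all genes, and these shares stand beside all calls with batch as a number given here. They were Egr4 (-0.42, SE 0.12), Vgf (-0.74, SE 0.21), the growth arrest gene Gadd45g (-0.42, SE 0.13), the chaperone gene Dnajb5 (-0.34, SE 0.12) and the kinase gene Plk2 (-0.44, SE 0.15).

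The values of some of these genes in the other comparisons stand beside those of Fos. The difference of Arc was 0.12 (SE 0.20, p = 0.555) in FC vs. TA and -0.77 (SE 0.19, p = 0.000341, adjusted p = 0.768 in limma) in EXT vs. FC, where it ranked 3 of all genes by p and Fos ranked 2. Vgf, Dnajb5 and Plk2 differed in FC vs. TA by -0.49 (SE 0.13, p = 0.000598), -0.32 (SE 0.11, p = 0.00700) and -0.38 (SE 0.10, p = 0.000826), with adjusted p from 0.102 to 0.160. In FC vs. TA these 3 of 19 were the early genes lower at an unadjusted p of 0.05, and 0 were higher, beside 8.20% and 8.61% of all genes.

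**Figure D5:**
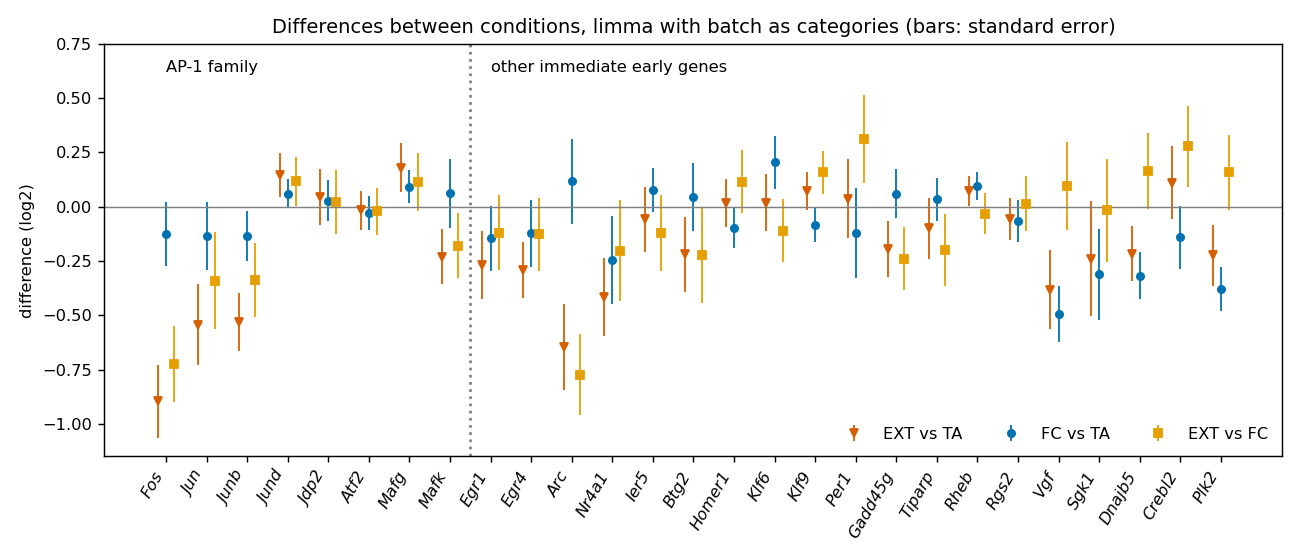
Difference in log2 cpm (y axis, with standard errors from limma) for 8 AP-1 genes and 19 other immediate early genes (x axis) in the 3 comparisons. Fos, Jun, Junb and Arc have the lowest values in EXT vs. TA, while Jund, Jdp2, Atf2 and Mafg lie near or above 0.

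Upstream of AP-1, the MAP kinases carry signals from the membrane to the nucleus. Of 24 such genes on the list, 20 were among the rows, and in EXT vs. TA 0 passed the adjusted threshold and at an unadjusted p of 0.05 6 were lower and 0 higher, beside 11% and 10.2% of all genes, with a median of -0.13. With batch as a number, 2 passed as lower, Mapk14, the kinase p38 alpha (-0.32, SE 0.09, adjusted p = 0.0169), and Map2k1, the ERK activator MEK1 (-0.69, SE 0.19, adjusted p = 0.0166). In FC vs. TA the median was -0.14, and 7 of 20 were lower and 0 higher at an unadjusted p of 0.05, beside 8.20% and 8.61% of all genes. Nothing particular to the list is read from these counts.

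The list of factors that bind or switch on the Fos promoter held 23 names, with synonyms among them, and 15 were measured. In EXT vs. TA 0 passed the adjusted threshold. At an unadjusted p of 0.05, 3 were lower and 1 higher (median -0.02), against the same 11% and 10.2% of all genes. Elk1, which docks on serum response factor when ERK phosphorylates it, was higher by 0.25 (SE 0.11, adjusted p = 0.184 in limma) and passed with batch as a number, at 0.53 (SE 0.14, adjusted p = 0.0148). So did the coactivator gene Crebbp, higher by 0.39 (SE 0.13, adjusted p = 0.0339). The kinase gene Camk2d passed in the same fit as lower, at -0.60 (SE 0.16, adjusted p = 0.0166).

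The next lists hold genes that act on AP-1 signals or on early RNA. Of 18 names of phosphatase and protein turnover genes, synonyms included, 11 were measured. At an unadjusted p of 0.05, 2 were lower and 0 higher in EXT vs. TA, against the same shares of all genes. The median was -0.03. Dusp1, an early gene whose product removes phosphate from MAP kinases, differed by -0.48 (SE 0.11, p = 0.000149, adjusted p = 0.133) and ranked 6 of all genes. With batch as a number it passed as lower (-0.48, SE 0.10, adjusted p = 0.0130), and Rfwd2, a ubiquitin ligase that acts on Jun, passed as higher (0.40, SE 0.13, adjusted p = 0.0317). The other list holds 12 RNA-binding proteins, most of which bind AU-rich elements, through which early RNA is degraded or kept. Pum2 on this list binds a different element. Of the 12, 8 were measured, with 1 lower and 1 higher at an unadjusted p of 0.05, again beside 11% and 10.2% of all genes. With batch as a number, Elavl1 passed as lower (-0.47, SE 0.15, adjusted p = 0.0300) and Pum2 as higher (0.76, SE 0.19, adjusted p = 0.0130).

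In EXT vs. FC, 0 genes of any of the 6 lists passed the adjusted threshold with batch as categories or as a number. At an unadjusted p of 0.05, where 1.97% of all genes were lower and 2.22% higher, the early gene list had 1 lower (Arc) and 0 higher, and the factors at the Fos promoter had 0 lower and 2 higher (Elk1 and Mef2a, a calcium-responsive factor). Nr4a1 and Mef2a fall outside the rule for named genes and were chosen after their values were seen.

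Markers were used to describe the cell types in the captured RNA. Of 17 markers of Crh and central amygdala inhibitory neurons, 16 were among the rows, and Crh itself had a median log2 cpm of 5.73 in TA, 5.35 in FC and 5.03 in EXT mice. RNA of other cells was present too: 8 of 8 astrocyte markers and 8 of 9 oligodendrocyte markers were among the rows, with 2 of 6 for glutamatergic neurons, 4 of 10 for choroid plexus and 1 each of 8 for microglia and 7 for endothelial cells. The authors kept only genes above a cpm minimum in all samples, so no row could be at 0. A marker among the rows passed that filter, and without RNA from before the pull-down its presence does not show enrichment. The summed level of the Crh and central amygdala list was 3531 to 7872 cpm in TA, 3593 to 8538 in FC and 2284 to 8420 in EXT mice. That of the choroid plexus list was 187 to 27460 cpm in TA, 673 to 19370 in FC and 186 to 51050 in EXT mice.

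The summed levels of the other lists were 637 to 2552, 902 to 2181 and 928 to 3160 cpm in TA, FC and EXT mice for astrocytes. They were 1381 to 6343, 1678 to 18250 and 1850 to 13370 cpm for oligodendrocytes and 40.4 to 233, 20.3 to 232 and 20.5 to 323 cpm for glutamatergic neurons. Inside batches, EXT and TA mice differed by -0.07 in the Crh and central amygdala list, by -0.16 in the glutamatergic list and by -0.51 in the choroid plexus list on the log2 scale (exact permutation, p = 0.637, 0.681 and 0.523). The differences were 0.06 for astrocytes, -0.12 for oligodendrocytes, 0.13 for microglia and 0.23 for endothelial cells (exact permutation, p = 0.776, 0.616, 0.533 and 0.22). With the mean level of 1 of these 3 lists as a covariate, a choice made after the data had been seen, Fos differed by -0.85 (SE 0.17), -0.89 (SE 0.17) and -0.95 (SE 0.15) between EXT and TA mice in limma. Junb differed by -0.44 (SE 0.13), -0.50 (SE 0.13) and -0.56 (SE 0.13), and Jun by -0.63 (SE 0.19), -0.46 (SE 0.14) and -0.56 (SE 0.19).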

How the data were processed

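RNA on the ribosomes of Crh neurons was sequenced from 44 mice. The authors deposited limma voom values, which are log2 cpm with an offset of 0.5 reads. Reads had been trimmed (Trimmomatic 0.36), aligned to GRCm38 (STAR) and counted for each gene; genes under a cpm minimum in any sample and outlying samples were dropped by the authors. All columns hold log2 values. Solving the values for reads gave whole numbers within 0.05 reads for 360932 of 360932 values, which gave library sizes (effective, after scaling) and reads. No batch correction of the deposited values is stated. The counting tool and its strand setting are not given in the sources used here.

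Pairs of conditions were compared with limma 3.58.1 (lmFit, eBayes, R 4.3.3; two-sided, Benjamini-Hochberg over 8203 genes, threshold 0.05), with batch and sex as terms as in the study. The study names no coding of batch; categories were used because batch numbers have no order and batches 3 and 4 hold EXT mice only, which then inform the spread and the sex term but not the difference. The same model was tested on simulated data. Single values and ratios were tested by exact permutation of labels inside batches 1, 2 and 5, with batches weighted by their numbers of mice, and correlations with 100000 permutations inside batch and condition (Python 3.11.15, SciPy 1.17.1). The p-values set each result against the spread between mice. Marker lists entered correlations and covariates as mean log2 values, and their levels are sums of cpm. Motifs were searched on both strands.

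The members, lists and markers were chosen with earlier results of these data known. Named were the members, measured AP-1 genes, listed genes past the adjusted threshold with batch as categories or as a number, and the 5 genes most like each member. In all, 17 alternatives of the fit and 3 marker covariates added after seeing the data were run. Sex labels could not be checked from the genes in the table, and the labels of 4 EXT mice of batch 3 (replicates 2, 5, 8 and 11) stand out of number order; they were used as given.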

Additional observations from a re-analysis of the deposited data

Results flagged for a closer look

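Of 39 groups of 4 to 10 mice of one condition and batch or one condition and sex, 4 held a mouse farther from the others than Dixon's critical value allows, where chance gives about 5%. EXT replicate 3, a female of batch 3, had a Fos level of 5.3936 log2 cpm, while the other 4 EXT mice of its batch had 3.52 to 4.04 (gap over range 0.724). The same mouse, at 5.3936, stood apart from the other 5 EXT females, which had 3.78 to 4.00 (gap over range 0.861). Without it Fos differed by -0.89 between EXT and TA mice and Junb passed the adjusted threshold in limma (adjusted p = 0.0272). The difference of Junb was -0.53 with and without this mouse. In the fit without it 472 of 8203 genes passed, 250 lower and 222 higher. FC replicate 10, a male of batch 5, had a Fos level of 3.6746, below the other 5 FC males at 4.53 to 4.97 (gap over range 0.656). FC replicate 3, of batch 1, had a Jun level of 4.2148, below the other 4 FC mice of its batch at 5.35 to 5.73 (gap over range 0.752).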

How the results depend on the processing

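Fos in EXT vs. TA was negative in all 21 alternatives to the reported fit. Fos kept its side of the threshold in 14, counting the exact permutation, which has no adjusted p and was held to an unadjusted p of 0.05. It missed the adjusted threshold without batch 1 (-0.95, adjusted p = 0.120), batch 2 (-0.78, 0.383) or batch 5 (-1.0, 0.0691), with voom weights (-0.91, 0.0516), with library size (-0.67, 0.880), and with the Crh and central amygdala (-0.85, 0.143) or glutamatergic (-0.89, 0.0504) marker level as a covariate; fewer mice enter without a batch, and the other causes were not tested. Junb passed with batch as a number (-0.71), with no batch term (-0.73) and without batches 3 and 4 (-0.52), and Jun with batch as a number (-0.54) or no batch term (-0.53). In males Junb passed with batch as a number (-0.82) or no batch term (-0.85). The 2 genes past the threshold in EXT vs. TA became 1755 with batch as a number, 1614 with no batch term, 409 without batches 3 and 4, 6 without batch 5, 1 with all 3 groups in one fit and 11 with the choroid plexus level, and 0 without batch 1 or batch 2, with voom weights, with library size and with the other marker levels (384 to 1750 genes at an unadjusted p of 0.05); in males 1 gene became 7 with batch as a number and 318 with no batch term. In FC vs. TA, Fos became 0.0020 with library size. In EXT vs. FC, array weights gave -0.77 for Fos (adjusted p = 0.00760) and 4 genes in place of 0, the exact permutation gave -0.34 for Junb (p = 0.0446, unadjusted), and 2 genes in males became 0 with batch as a number or no batch term.

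Leaving out 1 mouse at a time, EXT vs. TA ranged from -0.96 to -0.85 for Fos (adjusted p 0.00326 to 0.133, passing in 13 of 32 fits; lost without EXT replicates 1, 4, 6, 7, 9, 10, 13, 15 or 16 and TA replicates 2, 5, 6, 7, 8, 10, 12, 13, 15 or 16), from -0.62 to -0.45 for Junb (passing only without EXT replicate 3) and from -0.67 to -0.44 for Jun (passing in none), with 0 to 472 genes past the threshold, 472 without EXT replicate 3. FC vs. TA ranged from -0.22 to -0.04, -0.18 to -0.08 and -0.18 to -0.06 for Fos, Junb and Jun, with 0 to 3 genes (3, 1 and 2 without FC replicates 5, 6 and 8). EXT vs. FC ranged from -0.82 to -0.68, -0.43 to -0.25 and -0.47 to -0.18, with 0 genes in each fit.

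Without stratification by batch, EXT mice of the batches that hold EXT mice only also entered the ratios. The ratio of Fos to Junb in EXT vs. TA then became -0.056. Ratios near 0 changed sign: Fos to Junb without stratification in FC vs. TA (-0.10) and EXT vs. FC (0.040), and Junb to Jun without batch 2 in EXT vs. TA (0.029), FC vs. TA (0.022) and EXT vs. FC (-0.0030) and without stratification in FC vs. TA (0.14) and EXT vs. FC (-0.34). With mice centred on batch means only, Jun correlated with Fos at 0.48 and with Junb at 0.53 (permutation p = 0.00602 and 0.00336), and of the first 5 genes most like Fos, Junb and Jun, 2, 0 and 2 remained. No paired analysis was possible because the replicate numbers only name mice. Counting error is small for the members, whose lowest value was 163 reads, but library size differs between the conditions. With it as a covariate, all 3 differences in EXT vs. TA lay nearer 0 (Junb -0.33, Jun -0.25). Effects of library size and of condition cannot be told apart there.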

Other observations

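Jun, but neither Fos nor Junb, varied with the glutamatergic marker level among mice of the same batch and condition, as far as each correlation shows; the difference between the genes was not tested. Across 39 mice, r was 0.65 for Jun and the mean level of Slc17a7 and Neurod6, the vesicular glutamate transporter and a factor of excitatory neurons (permutation p = 0.00011, adjusted p = 0.00264 over 24 relations; rho = 0.60, permutation p = 0.00049, adjusted p = 0.0118). Without the 2 mice farthest from the median, r was 0.63. For Fos and Junb, r with the same markers was 0.01 and 0.08 (permutation p = 0.94 and 0.692, adjusted p = 0.961 and 0.863). Jun also correlated with the astrocyte markers (r = 0.55, permutation p = 0.00139, adjusted p = 0.0167; rho = 0.46, permutation p = 0.00839, adjusted p = 0.101), and without the 2 farthest mice r was 0.49. With the Crh and central amygdala markers, r was 0.16, 0.37 and -0.37 for Fos, Junb and Jun (permutation p = 0.404, 0.0402 and 0.047, adjusted p = 0.693, 0.128 and 0.128). Library size correlated with Fos, Junb and Jun at r = 0.43, 0.40 and 0.34 (permutation p = 0.0382, 0.0249 and 0.0481, adjusted p = 0.128, 0.12 and 0.128). What part RNA from other cells has in these relations was not tested.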
